A study of Homo sapiens with 8 samples.

Results

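The Notch receptors, ligands and targets examined here were 10 of the 25411 genes listed in the RNA-Seq files, chosen by symbol: the receptors NOTCH1, NOTCH2, NOTCH3 and NOTCH4, the ligands JAG1, JAG2, DLL1 and DLL4, and the target genes HES1 and HEY1. The choice was made with earlier results of these data known. Expression was measured in 8 libraries of BEAS-2B, a human airway line made from immortalised bronchial epithelium, in 4 groups of 2 libraries. Untreated cells (UT) received no nickel, and nickel-exposed cells (Ni-E) had 100 μM NiCl2 in the medium over 6 weeks. Washed-out cells (Ni-W) were exposed likewise, and 1 population grown from a single exposed cell was then expanded in medium without nickel for more than 6 months. The group labelled HCl3 carries the same treatment text as Ni-W, but its time without nickel and its relation to the Ni-W population are not given in the labels. Both are called washed-out below. The comparisons ask which members differed during exposure (Ni-E against UT) and which differed after nickel was removed (Ni-W and HCl3 against UT, and each against Ni-E). As Ni-W is a single-cell-derived population, a property of that population and an effect of the exposure cannot be told apart, nor can group and experiment number where the labels give one (Ni-E and HCl3).

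Notch signalling passes between touching cells. A ligand of the Jagged or Delta-like family on one cell binds a Notch receptor on its neighbour, the receptor is cut by an ADAM protease and then by gamma-secretase, and the freed intracellular domain enters the nucleus. There it joins the DNA-binding protein RBPJ and a Mastermind co-activator and switches on target genes, of which the repressors of the HES and HEY families are the best known. In the airway epithelium the pathway takes part in the choice between secretory and ciliated cell fates.

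The largest differences among the members set the washed-out groups apart from the UT and Ni-E cells. NOTCH3, DLL1 and HES1 were called higher in both washed-out groups than in UT cells. DLL4 was called higher in Ni-W, and no member was called in Ni-E cells. The NOTCH3 calls held in all alternative analyses run, while those of DLL1, DLL4 and HES1 rested on low counts and were lost in some. A gene was called when DESeq2's adjusted p-value was under 0.05 and its fold change was at least 1.5 in either direction. Levels are given as read counts and as RPKM, the read count scaled by transcript length and by library size, the scale on which genes can be compared with each other.

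The promoter of HES1, a Notch target, is printed beside that of NOTCH3, the receptor with the largest called change. Only the reference sequence was searched, and binding of RBPJ was not measured. The letters are the 250 bases before the transcription start in RefSeq on GRCh38.p14, 5′ to 3′ on the gene's own strand, with the RBPJ core TGGGAA (searched on both strands) in capitals. The HES1 window is chr3:194135898-194136147 on the plus strand, and the NOTCH3 window is chr19:15200996-15201245 on the minus strand.
HES1: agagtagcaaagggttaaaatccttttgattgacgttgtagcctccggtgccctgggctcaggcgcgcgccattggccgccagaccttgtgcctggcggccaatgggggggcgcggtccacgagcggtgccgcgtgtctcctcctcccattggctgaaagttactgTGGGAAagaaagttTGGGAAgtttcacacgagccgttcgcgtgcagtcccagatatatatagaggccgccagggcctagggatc
NOTCH3: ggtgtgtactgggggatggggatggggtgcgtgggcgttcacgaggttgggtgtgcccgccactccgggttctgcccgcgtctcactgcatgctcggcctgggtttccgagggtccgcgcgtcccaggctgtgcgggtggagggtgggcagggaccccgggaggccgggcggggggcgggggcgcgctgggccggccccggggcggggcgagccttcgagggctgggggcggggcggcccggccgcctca
The HES1 window held 2 copies of TGGGAA on the gene's strand, starting 84 and 70 bases before the start and thus 14 bases apart, and 1 of them was part of the longer word GTGGGAA. The other 7 member windows searched, those of NOTCH1, NOTCH2, NOTCH3, NOTCH4, JAG1, JAG2 and DLL4, held none. Of 27305 promoter windows of this length, 21.1% held at least 1 TGGGAA, 2.92% held at least 2, and 5.46% held GTGGGAA. DLL1 and HEY1 were not searched.

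The libraries held between 26383920 and 45692298 counts, so the limit set by a count of 0 (3 counts) was 0.0657 to 0.114 CPM (counts scaled to library size), and the 10 most abundant genes took 3.24% to 3.87% of each. Of the epithelial markers, KRT8 (192 to 310 RPKM) and KRT18 (144 to 245 RPKM) were high in every library, while EPCAM (0.95 to 1.79 RPKM), CDH1 (0.01 to 0.11 RPKM) and KRT5 (at most 0.03 RPKM) were low. Of the 6 fibroblast markers, COL1A1 (178 to 454 RPKM) and PDGFRB (10.6 to 27.9 RPKM) were high, COL1A2 (0.03 to 2.05 RPKM) and LUM (0.00 to 0.91 RPKM) were low, PDGFRA had at most 4 reads and DCN had 0 reads in every library. KRT19 had at most 1 read in any UT or Ni-E library and 27 to 59 reads in the washed-out libraries. In bulk RNA a change in the number of cells that express a gene and a change in its level per cell cannot be told apart.

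On the RPKM scale NOTCH2 was the most abundant member in every group, followed by NOTCH1. In UT cells the mean levels ran from NOTCH2 at 34.4 RPKM through NOTCH1 (5.60), JAG2 (2.99), JAG1 (1.91), NOTCH3 (0.515), HEY1 (0.380), HES1 (0.275), DLL4 (0.050) and DLL1 (0.030) to NOTCH4 (0.010). Neighbours in this order from NOTCH3 down to HES1 had library values that overlapped, as did those of DLL4, DLL1 and NOTCH4. The order in Ni-E cells was the same. In Ni-W and HCl3 cells NOTCH3 moved from the fifth place to the third, ahead of both Jagged ligands, and HES1 and DLL1 moved ahead of HEY1, although the DLL1 and HEY1 values overlapped in Ni-W.

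**Figure D1:**
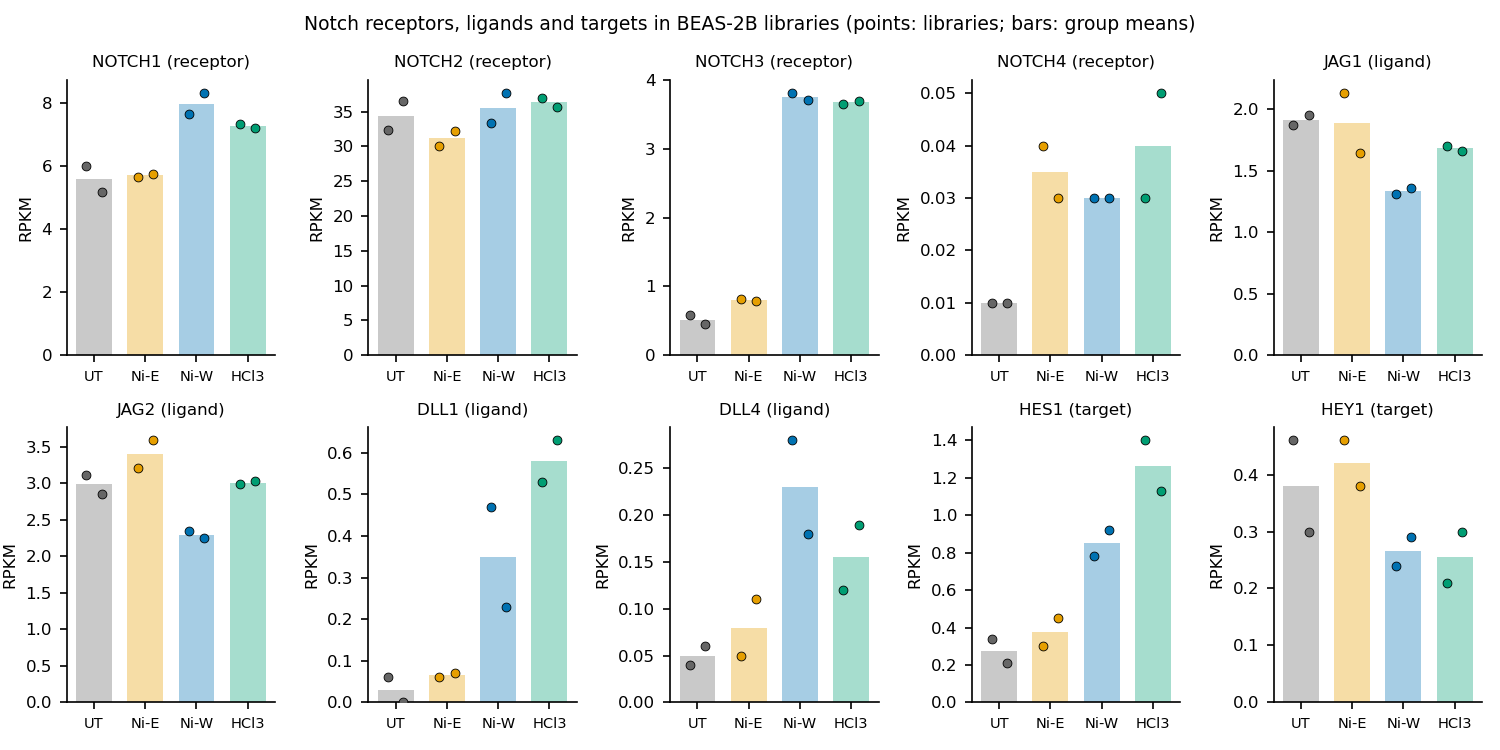
RPKM of each of the 10 genes (vertical axis, from 0, a scale of its own in each panel) in the 4 groups, with points for the 2 libraries and bars for their mean. NOTCH3 sits at 0.45 to 0.82 RPKM in the UT and Ni-E libraries and at 3.65 to 3.81 RPKM in the Ni-W and HCl3 libraries, while NOTCH2 stays between 30.1 and 37.7 RPKM.

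Among the receptors, NOTCH3 changed most. The gene, at chr19:15270444-15311792 (hg19, minus strand), encodes a receptor best known from vascular smooth muscle and also from airway basal cells. It had 199 and 107 reads in the UT libraries, 256 and 245 for Ni-E, 1585 and 1042 for Ni-W, and 1213 and 1286 for HCl3. In RPKM these were 0.58 and 0.45 for UT, 0.82 and 0.79 for Ni-E, 3.81 and 3.71 for Ni-W, and 3.65 and 3.70 for HCl3. Both washed-out groups lay above all 4 UT and Ni-E libraries, and the Ni-E libraries lay above the UT libraries by a small margin.

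Against UT, the log2 fold change of NOTCH3 was 2.82 ± 0.18 (SE) in Ni-W (adjusted p = 2.92e-54) and 2.76 ± 0.17 in HCl3 (adjusted p = 3.46e-56), or 7.05-fold and 6.79-fold. Against Ni-E it was 2.22 ± 0.15 in Ni-W (adjusted p = 2.73e-45) and 2.17 ± 0.15 in HCl3 (adjusted p = 9.13e-47). All of these calls held in each of the alternatives run. In Ni-E against UT the log2 value was 0.58 ± 0.26 with an adjusted p of 0.133, so the difference was not called during exposure. With all 8 libraries in one fit that adjusted p was 0.00384, but the fold change stayed under 1.5. Between HCl3 and Ni-W the log2 difference was -0.05 with a 95% interval of -0.25 to 0.16.

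The change is also seen in the make-up of the receptor transcripts. NOTCH3 made up 1.28% ± 0.30 (SD, n = 2) of the summed receptor RPKM for UT cells, 2.14% ± 0.14 for Ni-E, 7.98% ± 0.73 for Ni-W and 7.76% ± 0.23 for HCl3. NOTCH2 made up 84.8% ± 2.49 in UT and 75.0% ± 0.96 in Ni-W. With 2 libraries per group an exact permutation test of such a share cannot reach 0.05, and none is given.

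**Figure D2:**
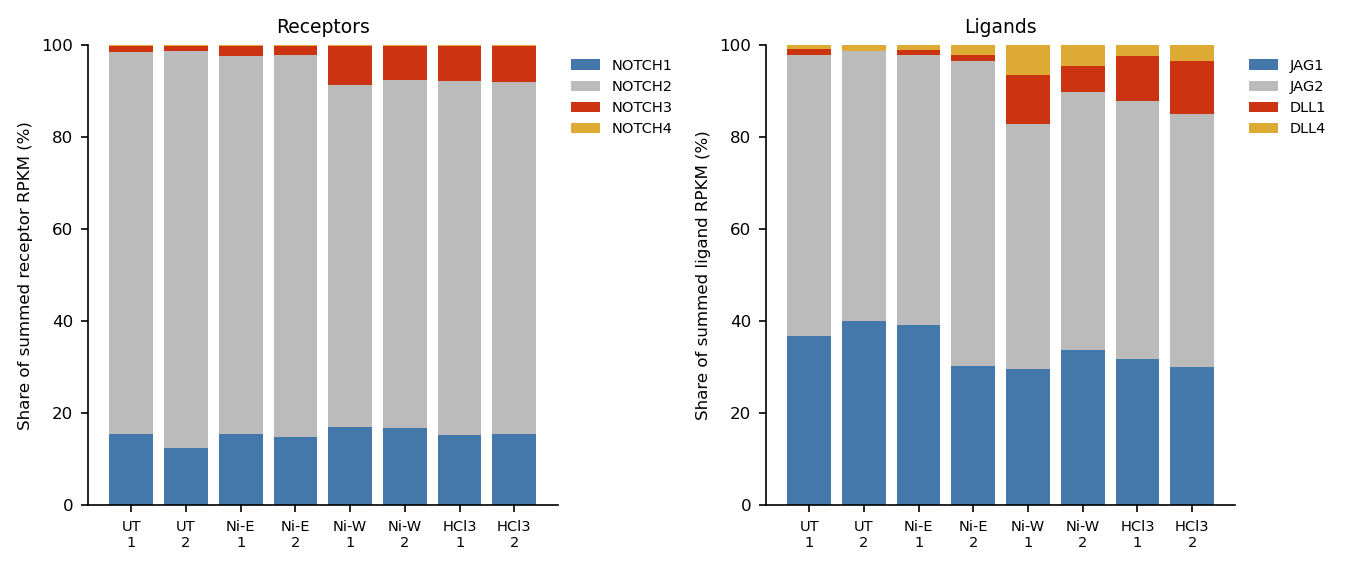
Share of the summed receptor RPKM (left) and ligand RPKM (right) taken by each gene, in percent, with 1 stacked bar per library and the group and replicate below it. NOTCH3 widens from 1.07% to 2.24% in the UT and Ni-E bars to 7.46% to 8.50% in the Ni-W and HCl3 bars, DLL1 widens among the ligands, and NOTCH4 is too thin to see.

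NOTCH1, at chr9:139388896-139440238 (hg19, minus strand), encodes a receptor that acts in many epithelia. It had 2364 and 1418 reads for UT (6.01 and 5.18 RPKM), 2037 and 2052 for Ni-E (5.67 and 5.77 RPKM), 3662 and 2698 for Ni-W (7.65 and 8.33 RPKM), and 2810 and 2886 for HCl3 (7.34 and 7.22 RPKM). The 4 washed-out libraries lay above the others in RPKM. Its log2 fold change against UT was 0.48 ± 0.12 in Ni-W (adjusted p = 0.00073) and 0.32 ± 0.11 in HCl3 (adjusted p = 0.0165), both under 1.5-fold and therefore not called. Without UT replicate 1 it was called in Ni-W (0.59). With GC and length trends removed the values were 0.28 in Ni-W and -0.02 in HCl3, so that the direction in HCl3 turned.

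NOTCH2 had 12302 to 19665 reads per library and 30.1 to 37.7 RPKM, and the UT range (32.4 to 36.5 RPKM) overlapped that of both washed-out groups. Its log2 fold change against UT was 0.01 ± 0.11 in Ni-W (95% interval -0.21 to 0.22) and 0.02 ± 0.09 in HCl3 (95% interval -0.16 to 0.21). NOTCH2 shares sequence with NOTCH2NL, a copy of its first part, and reads that mapped to more than one place had been discarded, so its level is uncertain. NOTCH2NL itself stood at 5.11 to 6.51 RPKM, with log2 fold changes against UT of -0.27 in Ni-W (adjusted p = 0.109) and -0.29 in HCl3 (adjusted p = 0.0688). NOTCH4, the receptor of endothelial cells, had 4 and 1 reads in UT and 6 to 14 in the other libraries, and none of its comparisons was called. It overlaps GPSM3 on the same strand, which had 214 to 624 reads per library and was called higher in Ni-W (log2 fold change 0.60) and HCl3 (0.77), so the few NOTCH4 reads cannot be assigned with certainty.

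Of the ligands, DLL1 and DLL4 had positive fold changes against UT in the washed-out groups and JAG1 and JAG2 negative ones. DLL1, at chr6:170591294-170599697 (hg19, minus strand), encodes a transmembrane ligand. It had 8 and 0 reads for UT, 8 and 9 for Ni-E, 80 and 27 for Ni-W, and 72 and 90 for HCl3, which is 0.06 and 0.00 RPKM, 0.06 and 0.07 RPKM, 0.47 and 0.23 RPKM, and 0.53 and 0.63 RPKM. The washed-out libraries lay above all others without overlap, but the Ni-W replicates were far apart and the second UT library had no read.

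Against UT the log2 fold change of DLL1 was 3.46 ± 0.88 in Ni-W (adjusted p = 0.000615) and 4.24 ± 1.60 in HCl3 (adjusted p = 0.0283). The ratio of summed CPM was 11.1 (95% counting interval 5.44 to 26.4) in Ni-W and 17.2 (8.52 to 40.5) in HCl3, intervals that cover counting error only. Against Ni-E the log2 fold changes were 2.41 ± 0.71 (adjusted p = 0.00272) and 3.11 ± 0.59 (adjusted p = 1.31e-06). In Ni-W against UT the call was lost without Ni-W replicate 1 (adjusted p = 0.308) or replicate 2 (0.568), when genes were first filtered to a mean count of 10 (0.1005), and with limma on log2(RPKM + 1) (0.0780) or log2(RPKM + 0.1) (0.0623). In HCl3 against UT it was lost without HCl3 replicate 1 (0.530) or replicate 2 (0.588) and with GC and length trends removed together with a replicate block (0.0549). DLL1 made up 0.59% ± 0.83 of the summed ligand RPKM in UT cells, 8.19% ± 3.49 in Ni-W and 10.7% ± 1.07 in HCl3 (SD, n = 2).

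DLL4, at chr15:41221531-41231258 (hg19, plus strand), is a ligand known for its role in blood vessels. It had 6 reads in each UT library, 7 and 14 for Ni-E, 50 and 21 for Ni-W, and 17 and 28 for HCl3, or 0.04 and 0.06, 0.05 and 0.11, 0.28 and 0.18, and 0.12 and 0.19 RPKM. The Ni-W and HCl3 libraries lay above UT, with HCl3 close to the higher Ni-E library. The log2 fold change against UT was 2.18 ± 0.81 in Ni-W (adjusted p = 0.0268) and 1.59 ± 0.89 in HCl3 (adjusted p = 0.169).

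The DLL4 call in Ni-W was lost with a replicate block (adjusted p = 0.110, or 0.143 with GC and length trends also removed), with limma on log2(RPKM + 1) (0.0518) and without any 1 of the 4 libraries (0.0899 to 0.548), while edgeR also called DLL4 in HCl3 (adjusted p = 0.0290). Genes near DLL4 were also higher in Ni-W: of the 84 genes within 5 Mb whose normalised count averaged 50 or more, 23 were called higher and 1 lower, with a median log2 fold change of 0.42. Of all genes tested, a wider set without that count limit, 11.1% were called higher and 4.95% lower. For HCl3, 9 of 84 such genes were higher and 1 lower (median 0.26). Near the other members called in Ni-W, 9 of 196 genes were higher and 8 lower for NOTCH3 (median -0.10). For DLL1 it was 3 and 0 of 15 (0.05), and for HES1 2 and 2 of 42 (-0.09). The endothelial markers had a summed level of 0.16 to 0.25 RPKM in UT and 0.23 to 0.36 RPKM in Ni-W, with PECAM1 at no more than 2 reads and CDH5 at no more than 6 in any library. Of the other 4, VWF rose in Ni-W by a log2 value of 2.01 (adjusted p = 0.0447), and TIE1, with most of the summed level in UT, stood at -0.22 (adjusted p = 0.855). KDR had 0 reads in UT, 12 in Ni-W (adjusted p = 0.118) and 18 in HCl3 (called higher, adjusted p = 0.0346), and TEK had at most 4 reads in any library. The part of neighbours and markers in the DLL4 difference was not tested.

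JAG1, at chr20:10618332-10654694 (hg19, minus strand), and JAG2, at chr14:105607318-105635161 (hg19, minus strand), were the most abundant ligands. JAG1 had 473 and 343 reads for UT (1.87 and 1.95 RPKM), 492 and 375 for Ni-E (2.13 and 1.64 RPKM), 404 and 284 for Ni-W (1.31 and 1.36 RPKM), and 420 and 427 for HCl3 (1.70 and 1.66 RPKM). JAG2 had 769 and 490 reads for UT (3.12 and 2.86 RPKM), 723 and 799 for Ni-E (3.21 and 3.59 RPKM), 705 and 455 for Ni-W (2.35 and 2.25 RPKM), and 711 and 755 for HCl3 (2.99 and 3.03 RPKM). For both genes the Ni-W libraries lay below all others, while HCl3 lay within the range of UT and Ni-E.

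In Ni-W against UT the log2 fold change was -0.55 ± 0.19 for JAG1 (adjusted p = 0.0137) and -0.42 ± 0.16 for JAG2 (adjusted p = 0.0323), both under 1.5-fold and not called. With GC and length trends removed they were -0.64 and -0.61 and were called, which gave 4 members higher and 2 lower in place of 4 and 0. With a replicate block added to that fit, 2 were higher (NOTCH3 and DLL1) and 2 lower (JAG1 and JAG2). In HCl3 against UT neither was called, with log2 fold changes of -0.24 ± 0.17 for JAG1 (95% interval -0.57 to 0.10) and -0.06 ± 0.15 for JAG2 (95% interval -0.34 to 0.23). JAG2 was 1.29-fold higher in HCl3 than in Ni-W (adjusted p = 0.0418). Genes around JAG1 were lower as well: of 14 genes within 5 Mb above the same count, 6 were called lower in Ni-W and 6 in HCl3, with median log2 fold changes of -0.58 and -0.43. Of all genes tested, a wider set without that count limit, 4.95% were called lower in Ni-W and 3.84% in HCl3. The part of the neighbours in the JAG1 values was not tested.

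Of the target genes, HES1 was called higher in both washed-out groups and HEY1 was called in neither. HES1, at chr3:193853931-193856401 (hg19, plus strand), encodes the repressor read as the standard output of Notch signalling, although other pathways act on it too. It had 21 and 9 reads for UT, 17 and 25 for Ni-E, 59 and 47 for Ni-W, and 84 and 71 for HCl3, or 0.34 and 0.21, 0.30 and 0.45, 0.78 and 0.92, and 1.40 and 1.13 RPKM. All 4 washed-out libraries lay above all UT and Ni-E libraries, and those of HCl3 were the highest.

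Against UT the log2 fold change of HES1 was 1.58 ± 0.60 in Ni-W (adjusted p = 0.0302) and 2.12 ± 0.53 in HCl3 (adjusted p = 0.000425), or 2.99-fold and 4.35-fold. Against Ni-E it was 1.19 ± 0.57 in Ni-W (adjusted p = 0.0822, but called with edgeR at 0.0162, with all 8 libraries in one fit and with GC and length trends removed) and 1.74 ± 0.51 in HCl3 (adjusted p = 0.00247). The Ni-W call against UT was lost with a replicate block (adjusted p = 0.112, or 0.0834 with GC and length trends also removed), with limma on log2(RPKM + 1), where the fold change was under 1.5, and without any 1 of the 4 libraries (0.0916 to 0.408), and the HCl3 call without HCl3 replicate 1 (0.177) or replicate 2 (0.0829). HCl3 and Ni-W differed by a log2 value of 0.55 (95% interval -0.20 to 1.31, adjusted p = 0.385). The HES1 promoter window holds the pair of TGGGAA words shown above, and their part in these differences was not tested.

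HEY1, another Notch target and repressor, had 44 and 18 reads for UT (0.46 and 0.30 RPKM), 40 and 32 for Ni-E (0.46 and 0.38 RPKM), 26 and 22 for Ni-W (0.24 and 0.29 RPKM), and 18 and 28 for HCl3 (0.21 and 0.30 RPKM). In CPM the washed-out libraries overlapped the lower UT library. Its log2 fold change against UT was -0.59 ± 0.63 in Ni-W (adjusted p = 0.532) and -0.67 ± 0.63 in HCl3 (adjusted p = 0.467), with 95% intervals of -1.83 to 0.65 and -1.90 to 0.57.

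**Figure D3:**
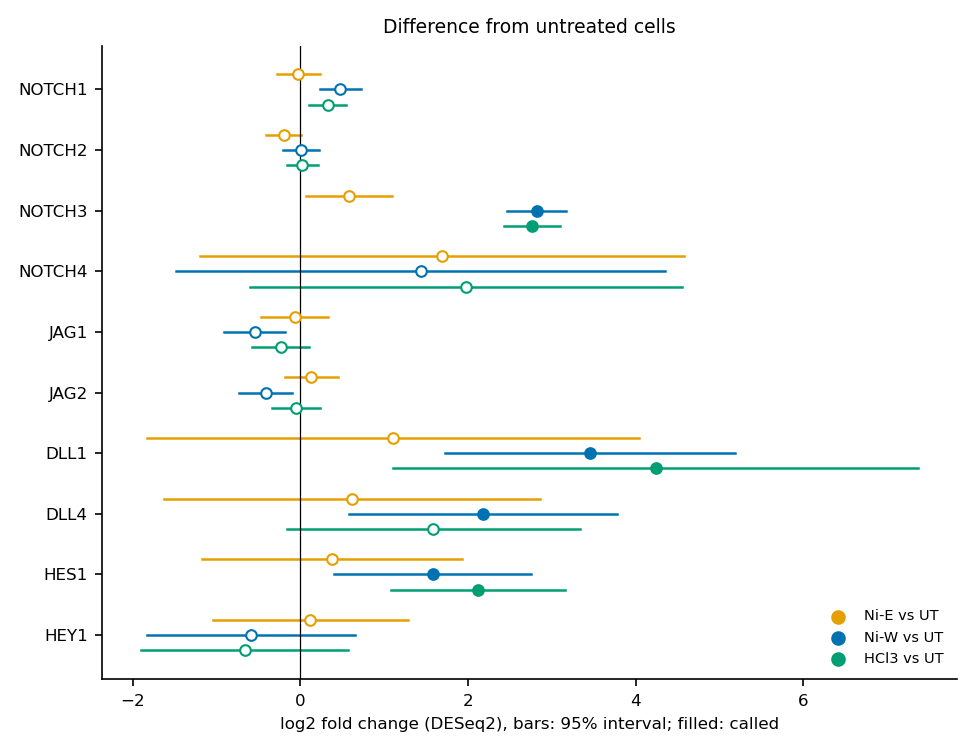
Log2 fold change against UT (horizontal axis, DESeq2) of the 10 genes in Ni-E, Ni-W and HCl3, with lines for 95% intervals, filled points for called genes and open points for the others. NOTCH3 stands apart at 2.82 and 2.76 with short intervals, the low-count genes DLL1, DLL4 and NOTCH4 have wide ones, and no Ni-E point is filled.

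The 10 members were all tested in every comparison, and their counts are given beside the share of all tested genes that was called. As the members were chosen with earlier results of these data known, no excess over that share can be read from these counts. In Ni-E against UT 3.84% of 14140 genes were called higher and 2.1% lower, and none of the members was called by DESeq2, edgeR or limma (1 had an unadjusted p under 0.05). In Ni-W against UT 11.1% of 15477 genes were higher and 4.95% lower, and 4 members were higher and 0 lower. In HCl3 against UT 11.4% of 15421 genes were higher and 3.84% lower, and 3 members were higher and 0 lower. Against Ni-E, 12.0% of genes were higher in Ni-W and 9.04% lower, with 2 members higher (NOTCH3 and DLL1) and 0 lower, or 3 higher and 2 lower with GC and length trends removed. For HCl3 against Ni-E the shares were 10.6% and 6.95%, with 3 members higher (NOTCH3, DLL1 and HES1). Between HCl3 and Ni-W 3.18% of genes were higher in HCl3 and 1.72% lower, and no member was called by DESeq2, edgeR or limma, with 1 at an unadjusted p under 0.05.

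The median log2 fold change of the members was 0.25 for Ni-E, 0.96 for Ni-W and 0.95 for HCl3 against UT, beside medians over all tested genes of -0.0024, 0.0058 and 0.0073. These comparisons share the UT libraries. No member lay near the Ni-W or HCl3 median. In Ni-W it fell between NOTCH1 (0.48) and NOTCH4 (1.44, with 16 reads against 5), neither of them called. In HCl3 it fell between NOTCH1 (0.32) and DLL4 (1.59), also not called. The numbers describe 10 chosen genes, of which NOTCH4, DLL1, DLL4, HES1 and HEY1 had at most 90 reads in any library.

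The other genes of the pathway were taken as a list of 45, from processing enzymes to further targets, and they were called in both directions. In Ni-E against UT 39 could be tested, of which 3 were higher (HES4, HES6 and HES7) and 3 lower (LFNG, MAML2 and SPEN). In Ni-W against UT 40 could be tested, with 6 higher (ADAM10, NCSTN, APH1B, DTX3L, DTX4 and CIR1) and 2 lower (DLL3 and HES4), or 6 and 1 with GC and length trends removed. In HCl3 against UT 40 could be tested, with 4 higher (FURIN, APH1B, MIB2 and HES6) and 1 lower (DLL3). The median log2 fold change of the tested pathway genes was -0.04, 0.14 and 0.24, in that order. Among all genes tested against UT, the share called higher was 3.84% (Ni-E), 11.1% (Ni-W) or 11.4% (HCl3). The share called lower was 2.1% (Ni-E), 4.95% (Ni-W) or 3.84% (HCl3). Whether the pathway list departed from these shares was not tested, so the genes named below are described singly.

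Enzymes that cut the receptor were among the genes called higher in Ni-W or HCl3. ADAM10, the protease of the first ligand-induced cut, stood at 28.6 and 34.0 RPKM for UT, 25.3 and 25.9 for Ni-E, 53.2 and 55.9 for Ni-W, and 49.0 and 44.6 for HCl3. Its log2 fold change was 0.77 ± 0.11 in Ni-W against UT (adjusted p = 5.06e-10), and 0.53 ± 0.11 in HCl3, under 1.5-fold. APH1B, a subunit of gamma-secretase, had 2.53 and 2.49 RPKM in UT and 4.28 to 5.02 RPKM in the washed-out libraries, with log2 fold changes of 0.95 ± 0.16 in Ni-W (adjusted p = 4.71e-08) and 0.72 ± 0.16 in HCl3 (adjusted p = 4.01e-05). NCSTN (nicastrin), the subunit that receives the substrate, was called in Ni-W (0.64 ± 0.10, adjusted p = 5.68e-09) and stood at 0.37 ± 0.09 in HCl3. Of the 6 gamma-secretase genes, 2 were called higher in Ni-W and 1 in HCl3. FURIN, which cuts the receptor on its way to the surface, was called in HCl3 (0.66 ± 0.11, adjusted p = 8.43e-09) and stood at 0.57 ± 0.12 in Ni-W.

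DLL3, a ligand that acts inside the cell and does not activate the receptor from a neighbour, fell. It had 2.62 and 2.02 RPKM for UT, 3.51 and 2.78 for Ni-E, 0.91 and 0.82 for Ni-W, and 1.33 and 1.39 for HCl3. The log2 fold change against UT was -1.48 ± 0.31 in Ni-W (adjusted p = 1.37e-05) and -0.83 ± 0.27 in HCl3 (adjusted p = 0.00993), opposite in sign to DLL1 and DLL4.

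LFNG, a Fringe enzyme that adds sugars to Notch receptors, was lower in Ni-E than in UT (log2 fold change -0.68 ± 0.18, adjusted p = 0.00345). Its log2 value was 0.96 ± 0.16 higher in Ni-W than in Ni-E. RFNG, a more abundant Fringe gene, moved the opposite way. Mean RFNG levels were 15.7 RPKM for UT, 23.2 for Ni-E, 15.3 for Ni-W and 16.7 for HCl3. The RFNG rise during exposure was not called, while its drop from Ni-E to Ni-W was. Among the co-regulators, MAML2 (-0.63 ± 0.15, adjusted p = 0.00133), a Mastermind co-activator, and SPEN (-0.68 ± 0.17, adjusted p = 0.00147), a corepressor of RBPJ, were lower in Ni-E. The 2 Ni-E libraries of SPEN were apart, at 3.56 and 5.60 RPKM. CIR1, another corepressor, was higher in Ni-W (0.69 ± 0.14, adjusted p = 6.26e-06). RBPJ was not called in any comparison, at 16.0 to 19.7 RPKM. The ubiquitin ligases DTX4 (0.95 ± 0.22, adjusted p = 0.000176) and DTX3L (0.64 ± 0.11, adjusted p = 7.61e-08) were higher in Ni-W, and MIB2, which acts on ligands, in HCl3 (0.66 ± 0.16, adjusted p = 0.000267).

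Of the further HES genes, HES7, HES4 and HES6 were called against UT in at least one group. HES7 had 37 and 19 reads for UT, 122 and 86 for Ni-E, 46 and 28 for Ni-W, and 44 and 54 for HCl3, so that the Ni-E libraries were the highest. Between Ni-E and UT the log2 value was 1.77 ± 0.45 (adjusted p = 0.00228), and it was -1.67 ± 0.42 in Ni-W against Ni-E (adjusted p = 0.000411). HES4 rose in Ni-E (0.65 ± 0.20, adjusted p = 0.0154) and was lower than UT in Ni-W (-0.63 ± 0.24, adjusted p = 0.0321). In HCl3 it was not lower than UT, with means of 8.4 RPKM in UT, 5.5 in Ni-W and 10.3 in HCl3, and was not called. Both HES4 and HES6 were called higher in HCl3 than in Ni-W. HES6, which is known to oppose HES1, was higher in Ni-E (0.73 ± 0.25, adjusted p = 0.0303) and in HCl3 (0.60 ± 0.23, adjusted p = 0.0312). HES1 itself differed by 0.38 ± 0.79 between Ni-E and UT. The pathway count in Ni-E against UT fell to 0 without UT replicate 2 or Ni-E replicate 1, to 2 without Ni-E replicate 2, and to 2 with GC and length trends removed.

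**Figure D4:**
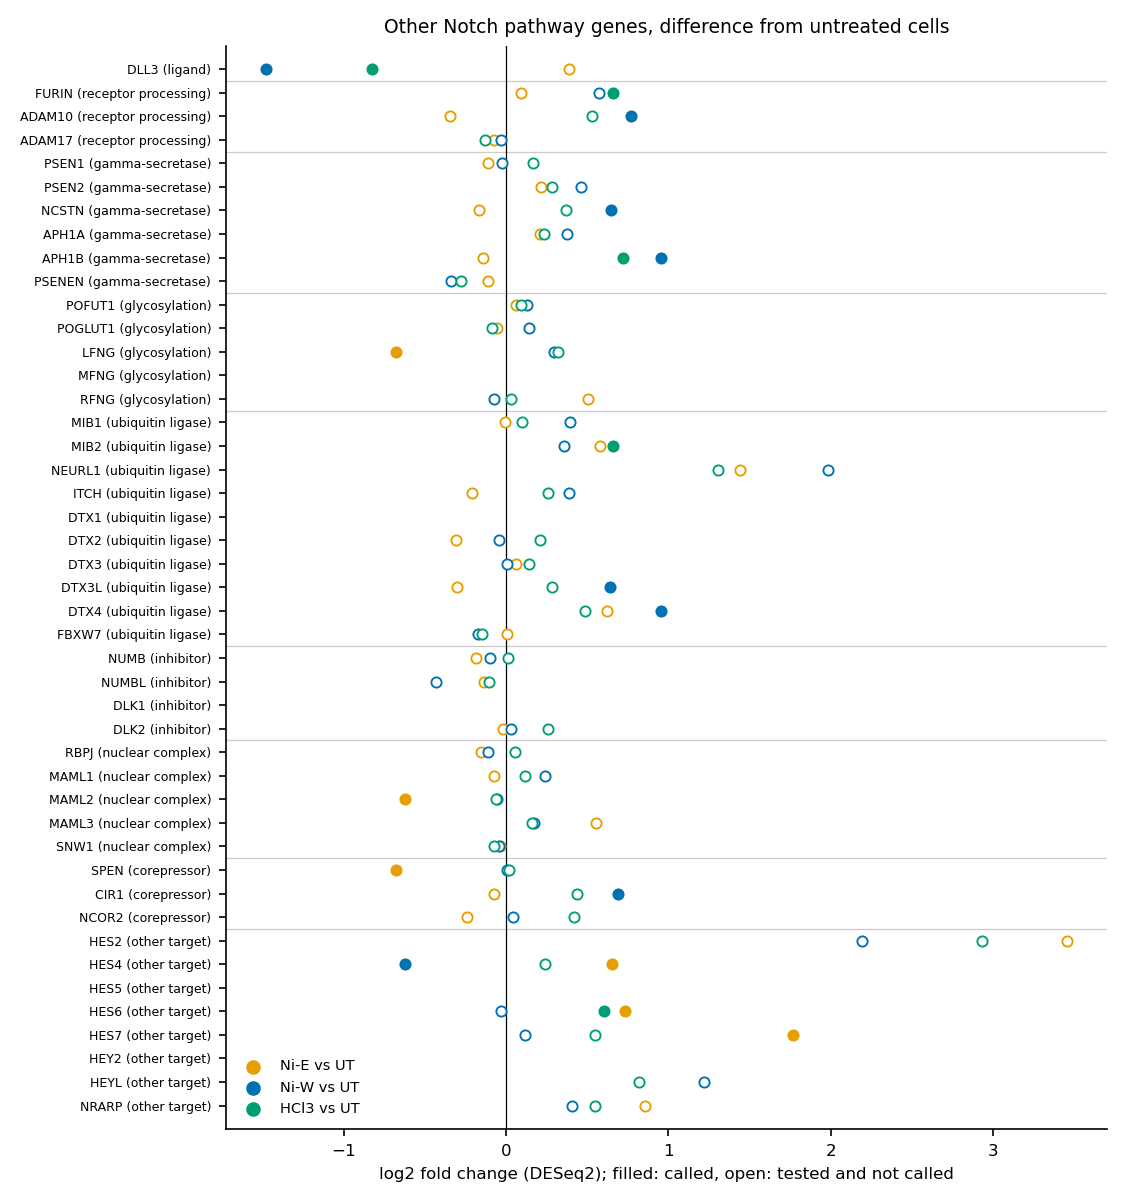
Log2 fold change against UT (horizontal axis, DESeq2) of the 45 other pathway genes, grouped by role, in Ni-E, Ni-W and HCl3, with filled points for called genes, open points for tested genes that were not called and no point for untested ones. DLL3 lies to the left at -1.48 in Ni-W and -0.83 in HCl3, ADAM10, NCSTN and APH1B lie to the right in Ni-W, and HES7 is filled at 1.77 in Ni-E alone.

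The pattern of NOTCH3 was shared by many genes. Over the 8 libraries its normalised level was most like that of FAM20C (Pearson r = 0.997) and RAVER2 (0.997), among 12015 genes whose normalised count averaged 50 or more, of which 373 reached 0.95. JAG2 was most like GMIP (0.983) and CCDC97 (0.983), and JAG1 most like FARSB (0.981) and NMT2 (0.975). The libraries come in 4 groups of 2, so these values describe the group pattern and carry no p-value.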

How the data were processed

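RNA from BEAS-2B cells (TruSeq RNA kit) was sequenced by the authors, aligned with STAR 2.4 to hg19 without reads that mapped to several places, and assigned to RefSeq genes. The deposited files give, per library, read counts per gene and RPKM computed by the authors. Whether strand was used in counting is not given in the sources used here. The counts of 2 groups at a time were tested here with DESeq2 1.42.0 (R 4.3.3; two-sided Wald test, median-of-ratios size factors, independent filtering at 0.05, Benjamini-Hochberg adjustment over all genes tested). DESeq2 is named in the study's methods. Genes with an adjusted p under 0.05 and a fold change of at least 1.5 were called. Alternatives used edgeR 4.0.16, limma 3.58.1 on log2(RPKM + 1) or log2(RPKM + 0.1), other filters and size factors, a replicate block, GC and length trends removed (mgcv 1.9.3) and each library left out. The trend offsets were centred on each library's median, a choice made after seeing that uncentred offsets moved the median fold change of all genes. Scripts were tested on simulated data. Promoters came from RefSeq (GRCh38.p14), and no coordinates were moved between builds.

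The members and lists were chosen with earlier results of these data known. All 10 members are named, as are the pathway genes called against UT (at most 3 per role), the genes that overlap a member or share its sequence, and the genes most like the 3 well-expressed members with the widest range. RNA came from 2 biological replicates per group per the study's methods, and with 2 libraries p-values rest on few degrees of freedom. The 8 libraries could each be assigned to a group from the labels.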

Additional observations from a re-analysis of the deposited data

Results flagged for a closer look

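Members whose difference from UT was not the same in nickel-exposed and washed-out cells were found by the direct test between those groups (DESeq2, n = 2 per group). NOTCH3 was higher by a log2 value of 2.22 in Ni-W than in Ni-E and by 2.17 in HCl3 than in Ni-E, and in both cases all washed-out libraries lay above all Ni-E libraries. DLL1 was higher by 2.41 in Ni-W and by 3.11 in HCl3. The first was not called without Ni-W replicate 1 (1.82, adjusted p = 0.384) or with limma on log2(RPKM + 1) (adjusted p = 0.0773) or log2(RPKM + 0.1) (adjusted p = 0.0515), and the second fell under 1.5-fold with limma on log2(RPKM + 1) (0.57, adjusted p = 0.00785). HES1 was higher by 1.74 in HCl3 than in Ni-E, and this was not called without Ni-E replicate 1 (adjusted p = 0.0638), HCl3 replicate 1 (adjusted p = 0.242) or HCl3 replicate 2 (adjusted p = 0.109).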

How the results depend on the processing

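The calls of NOTCH3 held in all alternatives run, in the 4 comparisons of Ni-W or HCl3 with UT or Ni-E. Of the values of single members under an alternative, 751 kept their direction and their side of the threshold, 31 fell short of it, 16 passed it and 34 changed direction. Alternatives in which a member was filtered out or had no adjusted p are left out of these counts. In Ni-E against UT, for example, 15 alternatives counted for NOTCH3 but 7 for NOTCH4, 8 for DLL1 and 9 for DLL4.

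The number of members called in Ni-W against UT was 4. It was 2 with the replicate block (DLL4 and HES1 lost), 1 with limma on log2(RPKM + 1), 7 with no fold threshold, and 1 to 3 with a library left out. With GC and length trends removed it was 6 (4 higher and 2 lower), and with the replicate block added to that fit 4 (2 higher and 2 lower). In HCl3 against UT it was 3, and 1 to 3 with a library left out. In Ni-W against Ni-E it was 2, but 4 with edgeR, 5 with GC and length trends removed (3 higher and 2 lower) and with no fold threshold, 4 with those trends removed and the replicate block, 1 with limma at either pseudocount, and 1 to 3 with a library left out. In HCl3 against Ni-E it was 3, and 5 with no fold threshold. In HCl3 against Ni-W it was 0, and 1 with no fold threshold.

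The number of other pathway genes called in Ni-E against UT was 6. It was 2 with the replicate block or GC and length trends removed, 1 with both, 1 at 2-fold, 0 with limma at either pseudocount, and 0 to 4 with a library left out. In Ni-W against UT it was 8, but 1 at 2-fold and 15 with no fold threshold. In HCl3 against UT it was 5, but 0 at 2-fold, 11 with no fold threshold, 2 with limma on log2(RPKM + 1), 3 with the replicate block or with replicates crossed, and 1 to 3 with a library left out. In Ni-W against Ni-E it was 11, but 5 at 2-fold and 17 with no fold threshold. In HCl3 against Ni-E it was 6, but 2 at 2-fold, 16 with no fold threshold, and 4 to 10 with a library left out. In HCl3 against Ni-W it was 2, but 0 at 2-fold, with limma at either pseudocount and with both GC and length trends removed and the block, 1 with the block or the trends removed alone, 8 with no fold threshold, and 0 to 1 with a library left out.

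None of the members that changed direction was called. With GC and length trends removed, then with the replicate block added, the log2 fold change of NOTCH2 turned to 0.0066 and 0.0078 in Ni-E against UT, -0.1417 and -0.1411 in Ni-W against UT, -0.1004 and -0.0993 in HCl3 against UT, -0.1776 and -0.1782 in Ni-W against Ni-E, and -0.121 and -0.1211 in HCl3 against Ni-E. NOTCH1 turned to -0.0192 and -0.0171 in HCl3 against UT and to -0.0252 and -0.0241 in HCl3 against Ni-E. In Ni-E against UT, JAG1 turned to 0.007 with the trends removed and JAG2 to -0.0001 with the block added. Under limma on log2(RPKM + 1) and log2(RPKM + 0.1), NOTCH1 turned to 0.0299 and 0.0351 in Ni-E against UT, and JAG2 to 0.008 and 0.0106 in HCl3 against UT.

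With a library left out, values in Ni-E against UT ran from -0.1275 to 0.0851 for NOTCH1, -0.2894 to 0.1221 for JAG1 and -0.2067 to 0.5582 for HEY1. NOTCH2 ran from -0.0863 to 0.1023 in Ni-W against UT, -0.0607 to 0.1075 in HCl3 against UT and -0.0713 to 0.1148 in HCl3 against Ni-W. In HCl3, JAG2 ran from -0.12 to 0.0083 against UT, NOTCH4 from -0.0332 to 0.5769 and JAG1 from -0.3802 to 0.0413 against Ni-E, and HEY1 from -0.3924 to 0.1897 against Ni-W.

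The causes were not tested. Whether replicate suffixes pair the libraries is not settled. The correlation of same-suffix deviations ran from -0.159 to 0.222 over the 6 comparisons. It was highest in Ni-W against UT, where the replicate block lost the DLL4 and HES1 calls. Replicates were crossed in the 3 comparisons with a value under -0.1, chosen after seeing the data. The members called were then 0 in Ni-E against UT, 3 in HCl3 against UT and 2 in Ni-W against Ni-E. The precision of NOTCH4, DLL1, DLL4, HES1 and HEY1 is limited by their low counts. Where a library was left out of a group, the lone library was assumed to vary like the other group.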
